A study of Mus musculus with 14 samples.

Results

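Lung PSGL1hi CD4+ T cells were compared with liver PSGL1hi CD4+ T cells from mice with chronic graft-versus-host disease (cGVHD), across all genes. The comparison takes every library labelled as a PSGL1hi sort from one of these tissues, 4 of the 14 bulk RNA libraries of the series, 2 from lung and 2 from liver. BALB/c recipients had been given bone marrow depleted of T cells from B6 (C57BL/6) donors together with donor splenocytes, and organs were collected 30 days after the transplant. Both groups share this transplant and differ by organ. The sorted cells were CD4+ T cells derived from the donor, gated on surface PSGL1, the P-selectin glycoprotein ligand encoded by Selplg. PSGL1lo cells of the same organs, 2 libraries from lung and 2 from liver, served to show where the organ difference depended on the gate. The labels give neither the age of the mice nor how many animals went into a library. The p-values therefore cover no more than how the sequenced libraries vary, and part of that may be technical. The lung PSGL1hi libraries held 25578595 and 28413717 counts and the liver PSGL1hi libraries 22380631 and 28033026. All 8 lung and liver libraries carry numbers of 1 library series.

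PSGL1 binds selectins and lets T cells roll along vessel walls, and its level falls on CD4+ T cells that take up follicular helper features. In cGVHD, donor CD4+ T cells enter organs such as lung and liver, where they meet recipient antigens, local cytokines and antigen-presenting cells. T cells that stay in an organ commonly carry CD69 and the integrin CD103 (Itgae), whereas S1PR1, its inducer KLF2 and CCR7 direct cells into blood, lymph and lymph nodes. Helper subsets are defined by T-bet (Tbx21) for Th1, GATA3 for Th2 and FOXP3 for regulatory cells.

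Lung PSGL1hi cells held more RNA of heat shock chaperones, AP-1 and NF-kappaB genes, Th2 and regulatory T cell genes, and genes of T cell circulation. They held less RNA of the granzymes Gzma and Gzmb, perforin, the chemokines Ccl3, Ccl4 and Ccl5, several inhibitory receptors, Il21 and interferon-stimulated genes. By the quasi-likelihood test of edgeR, 5288 of 13780 genes tested (38.4%) had a Benjamini-Hochberg adjusted p under 0.05. Of these, 2764 (20.1%) were higher and 2524 (18.3%) lower in lung, and these shares are the background for the gene lists below. With library totals in place of TMM scaling, which shifted the median of all genes by -0.134 on the log2 scale, 1947 genes were higher and 3971 lower. A test against a 1.5-fold change called 1165 genes (8.45%), 839 higher (6.09%) and 326 lower (2.37%), or 697 and 492 with library totals. The lung and liver libraries did not overlap for 9974 genes (72.4%).

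**Figure D1:**
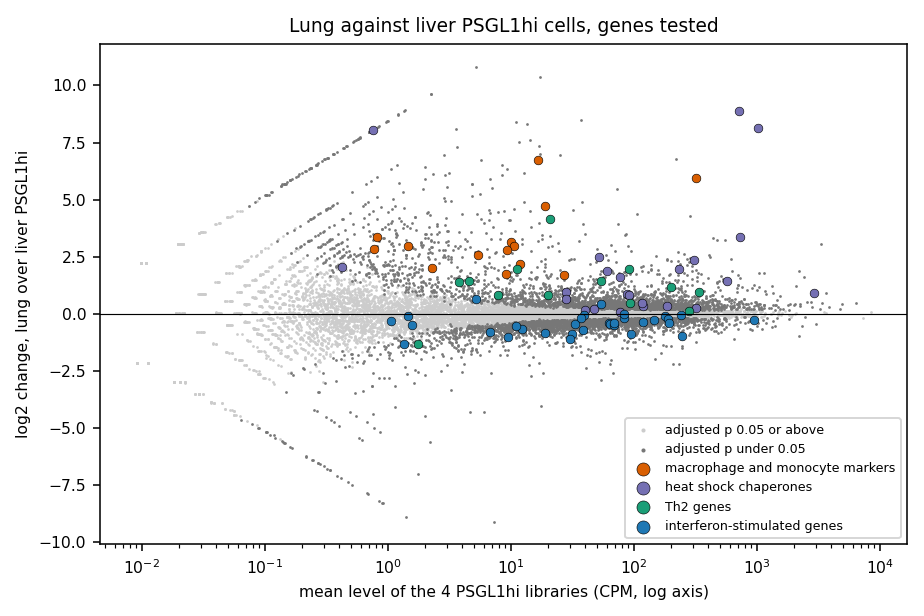
Each point is a gene: the x axis is its mean level over the 4 PSGL1hi libraries in CPM (log axis) and the y axis its fitted log2 change, lung over liver. Of the coloured lists, macrophage markers and most chaperones lie above 0 and most interferon-stimulated genes below it. The straight rows of points at the left are genes with 0 counts in one organ, whose fitted change depends on the model and measures no size.

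The sort markers were high in both organs. Levels below are CPM, a gene's counts put on 1 library size after TMM scaling, given for the 2 lung libraries and then the 2 liver libraries, and changes are log2 of lung over liver with their standard errors (SE). Selplg stood at 925 and 994 CPM in lung, against 909 and 937 CPM in liver, and its libraries overlapped (log2 change 0.06, SE 0.09, adjusted p 0.659 by edgeR). Cd4 stood at 2329 and 2353 CPM in lung, against 2557 and 2686 CPM in liver. The groups did not overlap, but the difference was small (-0.16, adjusted p 0.0331 by edgeR). It did not pass with RLE scaling (-0.14, adjusted p 0.0754 by edgeR). Nor did it pass without the second liver replicate (-0.13) or without any other single PSGL1hi library. The T cell receptor component Cd3e stood at 1018 and 1030.3 CPM in lung, against 1074 and 1219.8 CPM in liver (adjusted p 0.127 by edgeR). A list of 10 T cell and CD4 lineage genes summed to 11363 and 11408 CPM in lung and to 10394 and 10817 CPM in liver.

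Markers of other cells differed between the organs. Macrophage and monocyte markers summed to 752 and 937 CPM in lung, against 50.9 and 36.3 CPM in liver, and all 14 rose, among them Lyz2 (lysozyme) at 559 and 700.2 CPM against 14.1 and 6.67 CPM. The lung libraries were also far above the liver libraries for alveolar macrophage markers, with 384 and 529 CPM against 7.32 and 2.1 CPM; most of this is Chil3, and Marco and Fabp1 were at 0 in the first lung library. Class II and other dendritic cell markers summed to 659.8 and 821 CPM in lung and to 158 and 148 CPM in liver. Kupffer cell markers ran the other way, with 0.605 and 1.68 CPM in lung against 8.99 and 7.25 CPM in liver; the lectin Clec4f, which defines these liver macrophages, was at 0 in both lung libraries and at 2.02 and 1.38 CPM in liver. Neutrophil markers summed to 5.06 and 10.5 CPM in lung, against 59.3 and 14.7 CPM in liver, where the first library stood apart. B and plasma cell markers were low, at 10.4 and 10.8 CPM in lung and 4.45 and 4.28 CPM in liver. Cd8a and Cd8b1 together reached 28.5 and 30.6 CPM in lung, against 141 and 142 CPM in liver. NK cell markers summed to 191 and 238 CPM in lung, against 261 and 249.5 CPM in liver. Of 5 NK cell markers tested 2 rose and 3 fell. The part of these cells' RNA in the differences below was not tested.

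**Figure D2:**
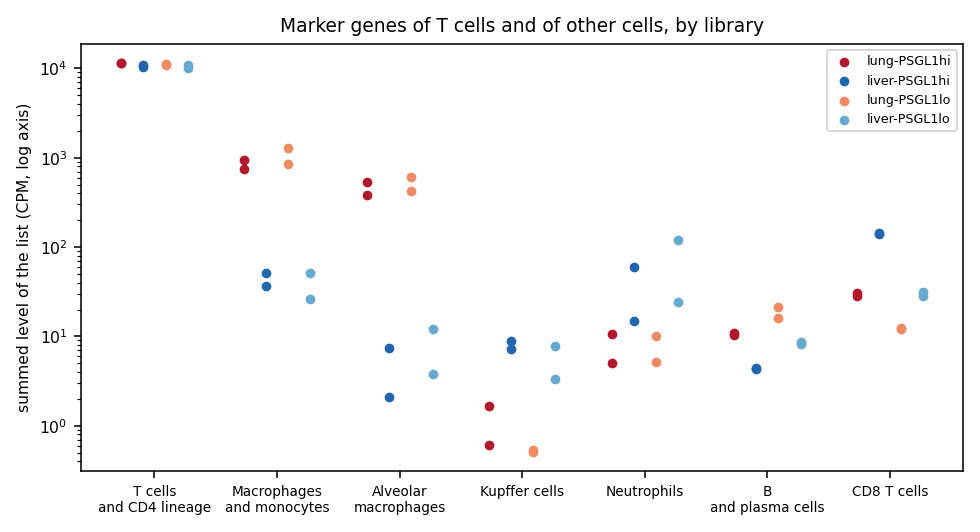
Summed level of marker lists in CPM (log axis), 1 point per library, for PSGL1hi and PSGL1lo cells of lung and liver. T cell markers reach 10048 CPM or more in every library, macrophage markers are higher in the lung libraries of both fractions, and CD8 markers are highest in liver PSGL1hi.

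The largest increases at a mean of 10 CPM or more in the higher organ included both HSP70 genes Hspa1a and Hspa1b, the macrophage markers Chil3 and Cd14 and the airway gene Scgb1a1. Among the 15 largest were Cxcl1, Scgb1a1, Hspa1a, Mmp12, Ptgs2, Cxcl2, Hspa1b, Atp6v0d2, Slc7a2, Il1a, Il1b, Chil3, Igfbp5 and Cd14. Mmp12, the macrophage elastase, was at 61.4 and 86.7 CPM in lung and at 0.359 and 0.0725 CPM in liver (8.49, SE 0.34, adjusted p 2.78e-14 by edgeR). Il1b, the inflammatory cytokine interleukin 1 beta, was at 48.1 and 52.2 CPM in lung, against 0.629 and 0.218 CPM in liver (6.94, SE 0.28). Scgb1a1, the secretoglobin of airway club cells, was at 37.9 and 31.4 CPM in lung and at 0 and 0.0363 CPM in liver. Cxcl1, a neutrophil chemoattractant, was at 9.21 and 11.5 CPM in lung and had no read in liver, at least 84.8-fold higher when the liver group is set at a mean floor of 3 counts per library. For the genes near 0 in liver the sizes rest on very few liver reads, whereas the direction was seen in both lung libraries.

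The 15 largest decreases were Alb, Cd200r2, Atp2b2, Cd8a, Cd244a, Ccdc80, 2900026A02Rik, 4-Sep (a date-like name as the file holds it), Setbp1, Rasd2, Mmp9, Cd7, Ccl3, Coch and Il21. Alb, the plasma protein made by hepatocytes, was at 0.0432 and 0 CPM in lung, against 16.3 and 13.1 CPM in liver. Apoa1, another hepatocyte product, was at 0 in both lung libraries and at 1.71 and 0.979 CPM in liver. Of 11 hepatocyte markers tested 7 fell and 2 rose. The 2 that rose were Apoe, which macrophages also make, at 164 and 155 CPM in lung against 15.2 and 13.1 CPM in liver (3.498, SE 0.17), and the transferrin gene Trf (1.65). With them the summed level of the list was higher in lung, at 196 and 192 CPM against 55.1 and 45.8 CPM in liver. Atp2b2, a plasma membrane calcium pump, was at 1.95 and 2.04 CPM in lung, against 32.8 CPM in each liver library (-4.04, SE 0.19, adjusted p 3.25e-13 by edgeR). Cd8a, the CD8 alpha chain, was at 12.3 and 13.4 CPM in lung and at 94.9 and 96.8 CPM in liver (-2.90, SE 0.11). Mmp9, gelatinase B, was at 25.4 and 19.3 CPM in lung, against 104 and 105 CPM in liver (-2.23, SE 0.12). For Alb, Apoa1, Atp2b2, Cd8a and Mmp9 both lung libraries lay far below both liver libraries.

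Genes well expressed in both organs gave a second set, chosen after values were seen: at 50 CPM or more in each organ, 4279 genes were measured, and 1265 were higher and 855 lower in lung past the test with no overlap of libraries. The 10 that rose most were Dnajb1, Vps37b, Nr4a1, Cxcr4, Tnfaip3, Nr4a3, Per1, P2ry10, Dusp5 and Nfkbiz, with log2 changes of 2.45 to 3.36. Tnfaip3, which encodes the NF-kappaB inhibitor A20, was at 5912 and 6024 CPM in lung, against 680.5 and 755 CPM in liver (3.06, SE 0.09, adjusted p 8.41e-17 by edgeR). Cxcr4, the receptor for CXCL12, was at 849 and 846 CPM in lung and at 92.1 and 89.3 CPM in liver (3.22, SE 0.08, adjusted p 8.14e-18 by edgeR). The 10 that fell most were Cd7, Ccl3, Serpina3f, Srsf1, Adgrg1, Lfng, Lag3, Gzma, Ccl4 and Dtx1, with log2 changes of -2.21 to -1.39. Cd7, a T and NK cell surface receptor, was at 59.6 and 87.6 CPM in lung, against 343 and 338 CPM in liver (-2.21, SE 0.17, adjusted p 8.58e-10 by edgeR). Srsf1, a splicing factor, was at 75 and 78.3 CPM in lung and at 255 and 259 CPM in liver (-1.75, SE 0.08). Lfng, which modifies Notch receptors, and Dtx1, a Notch target, fell by 1.51 and 1.39 on the log2 scale.

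Heat shock chaperones, which refold damaged proteins, rose in lung nearly as a whole. Of 23 heat shock genes tested, 19 rose, 0 fell and 4 were not called, against 20.1% of all genes higher; their median log2 change was 0.95, against -0.00242 over all genes. Hspa1b, an inducible HSP70 gene, was at 2117 and 1926 CPM in lung, against 7.5 and 6.96 CPM in liver (8.13, SE 0.13, adjusted p 1.89e-21 by edgeR). Its near-identical neighbour Hspa1a was at 1498 and 1343 CPM in lung and at 3.06 and 2.94 CPM in liver (8.89, SE 0.12); how reads were split between these copies is uncertain. Both lung libraries were far above both liver libraries for each copy. Dnajb1, the HSP40 partner of HSP70, was at 1461 and 1209.8 CPM in lung, against 128 and 131 CPM in liver (3.36, SE 0.09). Hsph1, an HSP110 that helps HSP70 exchange nucleotide, was at 582 and 451 CPM in lung and at 97.4 and 104 CPM in liver (2.36, SE 0.10). Other members rose less: the constitutive Hspa8 changed by 1.43, Hsp90aa1 by 1.98, and the mitochondrial chaperonin pair Hspd1 and Hspe1 by 0.85 and 0.95. Hspb1, a small chaperone, was at 1.6 and 1.41 CPM in lung and had 0 counts in liver, at least 12.3-fold higher against the floor; the median of the list is the same with Hspb1 at this bound.

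Promoters of chaperones are shown because the heat shock element, the site of heat shock factor 1, is known to drive these genes. They are RefSeq promoters of GRCm38.p6, from 250 bases before to 50 bases after the start, with matches to a heat shock element of 3 units on either strand in capitals; the pattern searched is GAA, TTC and GAA in a row with any 2 bases between neighbouring units. Hsph1 is at chr5:149636287-149636586 on the minus strand, Hspe1 at chr1:55087898-55088197 on the plus strand and Hspa1b at chr17:34959189-34959488 on the minus strand.
Hsph1: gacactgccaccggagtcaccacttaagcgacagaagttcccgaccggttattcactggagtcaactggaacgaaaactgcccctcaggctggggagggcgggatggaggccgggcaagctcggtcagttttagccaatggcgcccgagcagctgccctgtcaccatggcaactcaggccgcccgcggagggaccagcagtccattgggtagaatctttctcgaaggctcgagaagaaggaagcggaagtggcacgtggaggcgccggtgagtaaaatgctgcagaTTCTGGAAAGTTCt
Hspe1: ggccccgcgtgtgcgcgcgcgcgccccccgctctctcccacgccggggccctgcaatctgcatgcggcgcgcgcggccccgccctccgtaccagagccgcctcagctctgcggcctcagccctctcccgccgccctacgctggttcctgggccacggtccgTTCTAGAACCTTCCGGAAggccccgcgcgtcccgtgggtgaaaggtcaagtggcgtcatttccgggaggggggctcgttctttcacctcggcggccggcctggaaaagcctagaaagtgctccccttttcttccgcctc
Hspa1b: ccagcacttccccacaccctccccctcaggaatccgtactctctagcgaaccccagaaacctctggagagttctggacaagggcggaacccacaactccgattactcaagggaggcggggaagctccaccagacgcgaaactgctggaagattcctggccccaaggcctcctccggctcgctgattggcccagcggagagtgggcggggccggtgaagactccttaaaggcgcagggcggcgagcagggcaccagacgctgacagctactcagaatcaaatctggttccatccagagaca
Hsph1 held 1 match, Hspe1 2 that overlap, printed as 1 run, and Hspa1b 0 in this window. Of 18 tested chaperones with a promoter entry, 5 held a match (27.8%), namely Hsph1, Hspd1, Hspe1, Dnajb6 and Chordc1, against 0.612% of 10780 tested genes with an entry and 0.662% of all 27025 entries. Among chaperones that rose the share was 4 of 16 (25%).

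Immediate early factors of the AP-1 group, which cells switch on soon after stimulation, rose in 18 of 20 members and fell in 0, with a median log2 change of 1.05. Fosl2 was at 591 and 496 CPM in lung, against 27 and 29 CPM in liver (4.28, SE 0.11, adjusted p 3.08e-17 by edgeR). Atf3, a stress-induced repressor, was at 138 CPM in each lung library and at 8.27 and 9.61 CPM in liver (3.95, SE 0.14). Maff, Klf6 and Jun changed by 3.28, 1.79 and 1.24. Fos moved little, at 794 and 911 CPM in lung against 701 and 695 CPM in liver (0.29, adjusted p 0.0313 by edgeR). It lost its call under 7 of 16 alternatives. Among these were upper quartile scaling (adjusted p 0.0514 by edgeR), library totals (0.234), the 8 lung and liver libraries (0.0991) and DESeq2 (0.0768). The call was also lost without the second lung replicate, where the log2 change was 0.175, or without either liver replicate. Of 17 NF-kappaB genes, 13 rose and 0 fell (median 0.44), including the inhibitors Tnfaip3, Nfkbiz (2.45) and Nfkbia (1.27) and the subunit Rel (1.47). Macrophage markers were higher in the same lung libraries by the sums given above.

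Genes of T cell receptor signalling and its feedback were split, with 13 of 22 higher and 6 lower (median 0.73). Nr4a1, an orphan nuclear receptor induced by receptor signalling, was at 1051 and 925 CPM in lung, against 99.3 and 109 CPM in liver (3.25, SE 0.10, adjusted p 2.29e-16 by edgeR), and Nr4a3 changed by 2.71. Crem, a cAMP-responsive repressor, was at 168 and 147 CPM in lung and at 20.2 and 20.4 CPM in liver (2.95, SE 0.10), and the MAP kinase phosphatases Dusp4 and Dusp5 changed by 2.27 and 2.49. Egr2 and Egr3, also receptor-induced, moved the other way. Egr2 was at 18.4 and 18.3 CPM in lung, against 66.2 and 63.1 CPM in liver (-1.82, SE 0.10), and Egr3 changed by -1.53. Egr1 was at 349 and 435 CPM in lung, on both sides of 352 and 353 CPM in liver (adjusted p 0.387 by edgeR). Dusp6 and Tnfrsf9, which encodes 4-1BB, changed by -0.70 and -0.68.

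TGF-beta response genes rose in 14 of 18 members and fell in 1 (median 0.54). Tgif1, a Smad co-repressor, was at 162 and 165 CPM in lung, against 23.7 and 24.9 CPM in liver (2.74, SE 0.10). Smad7, the inhibitory Smad, was at 258 and 242 CPM in lung and at 61 and 72.5 CPM in liver (1.90, SE 0.10), and Skil changed by 1.89. Each pair of lung libraries lay above each pair of liver libraries. The 1 member that fell was Id2, an inhibitor of E proteins, at 830.5 and 841 CPM in lung against 1343 and 1342 CPM in liver (-0.68, SE 0.07). In the glucocorticoid and clock list 12 of 20 rose and 1 fell (median 0.47), including the clock gene Per1 (2.62), Bhlhe40 (1.61) and Tsc22d3, which encodes GILZ (1.55). The count that fell was 0 without the first lung or the second liver replicate and with DESeq2, and 3 with library totals.

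Genes of circulation and of residency were both higher in lung. Of 18 circulation and egress genes 11 rose and 3 fell (median 0.73), of 18 naive and memory genes 13 rose and 3 fell (median 1.03), and of 26 residency genes 14 rose and 6 fell (median 0.65); the circulation and the naive lists share members such as Ccr7, and the residency list holds Hspa1a and Nr4a1. Without the first lung replicate 1 circulation gene fell. S1pr1 was at 399.9 and 482 CPM in lung, against 152 and 157 CPM in liver (1.51, SE 0.09, adjusted p 1.63e-11 by edgeR). The transcription factors Klf2 and Klf3 changed by 1.26 and 1.36. Ccr7, the lymph node homing receptor, was at 36.5 and 38.9 CPM in lung and at 2.74 and 4.28 CPM in liver (3.40, SE 0.14). Tcf7, which encodes TCF-1, was at 739 and 816 CPM in lung, against 276 and 273 CPM in liver (1.502, SE 0.08). The costimulator Cd28 (1.58), the interleukin 7 receptor Il7r (1.12) and Id3 (1.70) rose as well, and Cd27 (-0.94) and the survival factor Bcl2 (-0.48) fell.

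On the residency side Cd69 was at 447 and 499 CPM in lung, against 178 CPM in each liver library (1.41, SE 0.09, adjusted p 1.15e-10 by edgeR). Itgae was at 92.3 and 102 CPM in lung and at 49 and 50.4 CPM in liver (0.97, SE 0.09). Both lung libraries were above both liver libraries for each. The G protein signalling regulators Rgs1 and Rgs2 changed by 1.76 and 2.38, and E-cadherin (Cdh1), the CD103 ligand, by 1.83. Prdm1, which encodes Blimp-1, was at 161 and 188 CPM in lung and at 186 and 182 CPM in liver (-0.07, adjusted p 0.571 by edgeR). Cxcr6, a receptor of liver- and lung-homing T cells, was at 857 and 766 CPM in lung, against 996 and 931 CPM in liver (-0.25, adjusted p 0.014 by edgeR), and lost its call without the first liver replicate (-0.20, adjusted p 0.144) or the second lung replicate (-0.18, adjusted p 0.173; 0.000438 to 0.173 over 16 alternatives).

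Chemokine receptors rose in 10 of 21 members and fell in 3 (median 0.29). Besides Cxcr4 and Ccr7, Gpr183, the oxysterol receptor, was at 233 and 214 CPM in lung, against 49.9 and 52 CPM in liver (2.13, SE 0.08). The 3 that fell were Cxcr3, Cxcr5 and Cxcr6, by 0.19 to 0.27 on the log2 scale; 1 fell with RLE scaling or DESeq2, and 0 or 1 without any single PSGL1hi library. Cxcr5 was at 15.9 and 19.7 CPM in lung and at 22.2 and 20.9 CPM in liver (adjusted p 0.0433 by edgeR). It did not pass with RLE scaling (adjusted p 0.0692 by edgeR), DESeq2 (0.0763), the 8 lung and liver libraries (0.0558) or the 4 PSGL1hi libraries alone (0.0645). Nor did it pass without the first lung replicate (log2 change -0.13) or either liver replicate. Cxcr3 was at 295 and 304 CPM in lung, against 337 and 346 CPM in liver (adjusted p 0.0469), and did not pass without any 1 PSGL1hi library, with adjusted p of 0.0835 to 0.206 over these 4 fits (0.000963 to 0.206 over 16 alternatives). Of 16 chemokine ligands 10 rose and 4 fell. Cxcl16, the membrane ligand of CXCR6, was at 11 and 12.3 CPM in lung and at 0.674 and 1.27 CPM in liver (3.54, SE 0.25). The 4 that fell include Ccl3, Ccl4 and Ccl5, which encode inflammatory CC chemokines. The CC chemokine genes Ccl2, Ccl8, Ccl9, Ccl17 and Ccl22 rose, but at low levels. Ccl9 was at 17.7 and 19.7 CPM in lung, against 1.3 and 0.87 CPM in liver. Ccl2 was at 0.821 and 0.47 CPM in lung and had 0 counts in liver. Ccl8, Ccl17 and Ccl22 were at 0.519 to 1.65 CPM in lung and at 0.0725 to 0.326 CPM in liver, near the floor. Ccl2 lost its call without the second liver replicate (adjusted p 0.0526 by edgeR), Ccl17 without the second liver or second lung replicate (0.12 and 0.0947), and Ccl22 without either liver or the second lung replicate (0.141 to 0.317) and with the 8 lung and liver libraries alone (0.0816). Cxcl2, a neutrophil chemoattractant, changed by 8.30, and macrophage markers were higher in the same libraries.

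Th2 genes rose in 11 of 13 members and fell in 1 (median 1.15). Gata3 was at 452 and 442 CPM in lung, against 220.2 and 246 CPM in liver (0.94, SE 0.08, adjusted p 1.01e-08 by edgeR). The cytokine genes had few reads: Il13 was at 19.1 and 16.3 CPM in lung and at 5.12 and 4.02 CPM in liver (1.96, SE 0.21), and Il5 and Il4 changed by 1.42 and 1.39. The Th2 homing receptor Ccr8 was at 152 and 137 CPM in lung, against 35.8 and 38.6 CPM in liver (1.96, SE 0.10), and Ccr4 changed by 1.43. In these genes the organs did not overlap. The member that fell was Ptgdr2, the prostaglandin D2 receptor, at 0.735 and 1.25 CPM in lung against 2.74 and 2.36 CPM in liver (-1.34, adjusted p 0.0198 by edgeR), and its call was lost without the first lung replicate (-1.03, adjusted p 0.171) or either liver replicate (0.00451 to 0.171 over 16 alternatives). Th17 genes rose in 6 of 12 members and fell in 0 (median 0.50). Rora was at 989.6 and 962 CPM in lung and at 266 and 275 CPM in liver (1.85, SE 0.08), and Il17a, Il23r and Ccr6 changed by 1.85, 1.23 and 0.88 at low levels.

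Areg, which encodes the repair factor amphiregulin and is counted in the Th2 list, was at 42 and 37.3 CPM in lung, against 2.02 and 2.39 CPM in liver (4.15, SE 0.16, adjusted p 1.18e-14 by edgeR). Its promoter is shown because a cAMP response element is known in the promoter of the human gene: RefSeq, GRCm38.p6, chr5:91139349-91139648, plus strand, with the cAMP response element TGACGTCA in capitals.
Areg: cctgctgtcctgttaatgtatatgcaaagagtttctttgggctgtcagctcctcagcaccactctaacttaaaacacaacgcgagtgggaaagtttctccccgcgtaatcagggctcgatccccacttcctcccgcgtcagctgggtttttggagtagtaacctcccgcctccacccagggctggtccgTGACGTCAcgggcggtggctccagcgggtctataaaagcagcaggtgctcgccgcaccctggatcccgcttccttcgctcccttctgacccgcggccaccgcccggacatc
The same letters, which read alike on both strands, stood in 21 of 627 promoters of genes higher by the 1.5-fold test (3.35%), in 1 of 246 lower (0.407%), in 3.49% of tested genes and in 2.03% of all entries.

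Regulatory T cell genes rose in 11 of 17 members and fell in 4 (median 0.38). Foxp3 was at 53.6 and 52.7 CPM in lung, against 19.2 and 22.3 CPM in liver (1.36, SE 0.12, adjusted p 5.74e-09 by edgeR). Lrrc32, which encodes the TGF-beta docking receptor GARP, was at 15.5 and 15 CPM in lung and at 1.26 and 1.34 CPM in liver (3.54, SE 0.20). Ctla4 was at 458 and 495 CPM in lung, against 112 and 113 CPM in liver (2.08, SE 0.08). The lung libraries were the higher in all 3 genes. Il10 was lower, at 42 and 45.7 CPM in lung and 59.9 and 58 CPM in liver (-0.43, SE 0.09), as was Entpd1, the ectonucleotidase CD39 (-0.65), while Nt5e, the CD73 that acts after it, rose (1.28). In bulk libraries more Foxp3+ cells and more of these RNAs per cell cannot be told apart, and the same holds for every gene group here.

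T follicular helper and B cell help genes were split, with 11 of 26 higher and 6 lower (median 0.16). Bcl6, the follicular repressor, was at 79 and 64.2 CPM in lung, against 15.6 and 16.1 CPM in liver (2.17, SE 0.12, adjusted p 3.51e-12 by edgeR). Icos was at 786 and 764 CPM in lung and at 241 and 248 CPM in liver (1.66, SE 0.08), and Cd40lg and Il6ra changed by 1.21 and 1.86. Il21, the cytokine of B cell help, went the other way with 21.6 and 17.7 CPM in lung, against 86.2 and 83.2 CPM in liver (-2.11, SE 0.10, adjusted p 2.66e-13 by edgeR). Angptl2 and Tox changed by -1.43 and -0.66. Pdcd1, which encodes PD-1, was at 454 and 422 CPM in lung and at 381 and 401 CPM in liver, with no overlap and no call (0.16, adjusted p 0.0815 by edgeR). It was called under 5 of 16 alternatives. These were RLE scaling (adjusted p 0.0472 by edgeR), the 4 PSGL1hi libraries alone (0.0158) and DESeq2 (0.0322). Without either liver PSGL1lo replicate it was called as well, with a change of 0.16 in each fit.

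**Figure D3:**
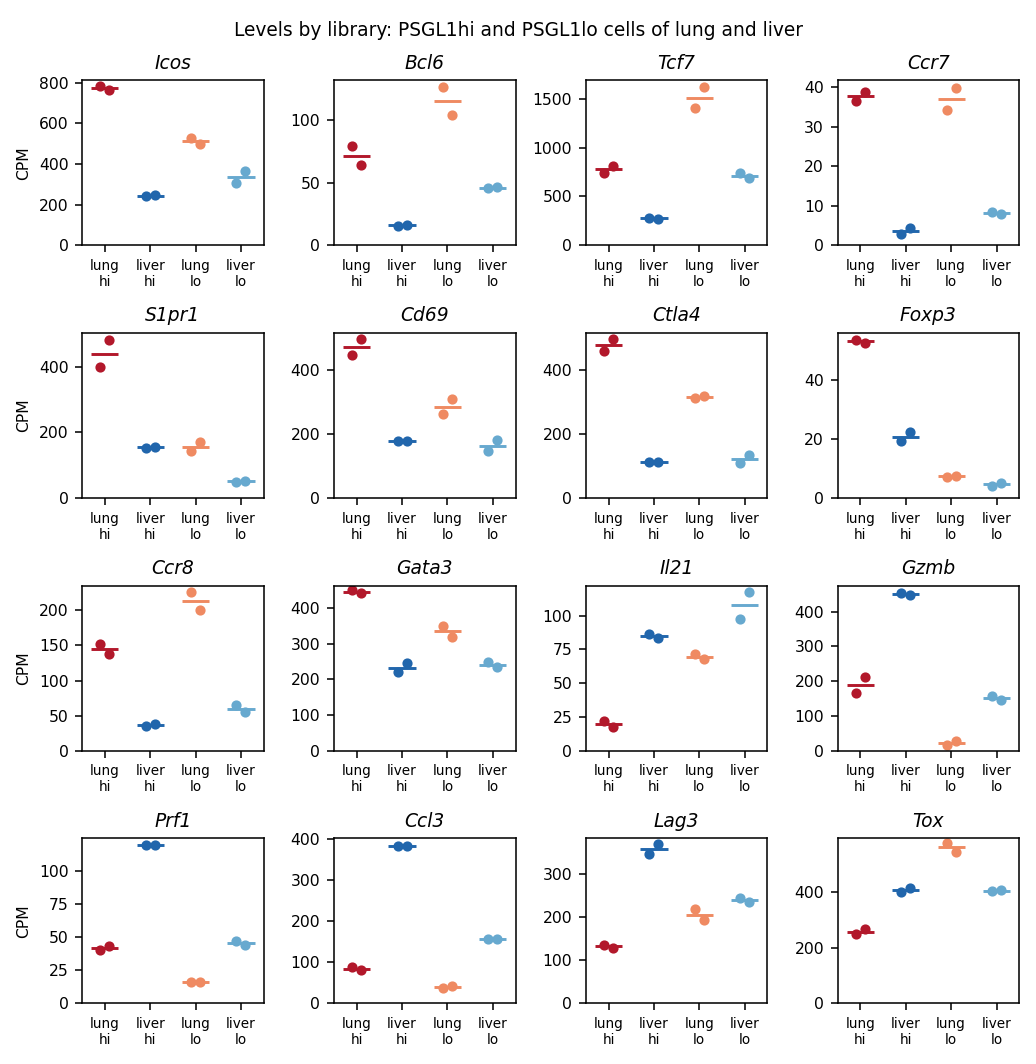
CPM of 16 genes in each library of PSGL1hi and PSGL1lo cells from lung and liver; points are libraries and bars the means of 2. In PSGL1hi cells Icos, Bcl6, Tcf7, Ccr7, S1pr1, Cd69, Ctla4, Foxp3, Ccr8 and Gata3 are higher in lung, and Il21, Gzmb, Prf1, Ccl3, Lag3 and Tox are lower.

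Th1 and cytotoxic genes rose in 9 of 23 members and fell in 11 (median -0.14). The granzymes Gzma and Gzmb, perforin, Ccl3, Ccl4 and Ccl5 were among those that fell. Not every granzyme tested was called. Gzmb was at 164 and 213 CPM in lung, against 452 and 448 CPM in liver (-1.25, SE 0.14, adjusted p 2.54e-07 by edgeR). Gzma was at 78.7 and 139 CPM in lung and at 298 and 292 CPM in liver (-1.44, SE 0.20). Prf1, which encodes perforin, was at 40.2 and 43.3 CPM in lung, against 119.5 and 119.6 CPM in liver (-1.52, SE 0.08). Ccl3 was at 87.8 and 80.4 CPM in lung and at 384 and 385 CPM in liver (-2.19, SE 0.08), and Ccl4 changed by -1.43. Ccl5, another CC chemokine, was at 1344 and 1598 CPM in lung, against 2907 and 2978 CPM in liver. All of these had both lung libraries below both liver libraries. The CD8 markers, of cells that also make these molecules, were lower in the same lung libraries. Among 5 NK cell markers tested 3 were lower and 2 higher there. The part of CD8 and NK cells in these decreases was not tested. Ifng was higher in lung, at 475 and 441 CPM against 360.5 and 359 CPM in liver (0.35, SE 0.07, adjusted p 0.000687 by edgeR). Tbx21 was at 234 and 188 CPM in lung and at 168 and 176 CPM in liver (0.29, adjusted p 0.0274 by edgeR). It lost its call with library totals (0.16, adjusted p 0.222 by edgeR) and with the 8 lung and liver libraries alone (0.27, adjusted p 0.0661). Its call was also lost without the first lung replicate, where the change was 0.11, or without either liver replicate. The interleukin 12 receptor chains split, with Il12rb1 at -0.92 and Il12rb2 at 0.58. Of 12 killer lectin-like receptors 4 rose and 4 fell; Klrb1c (-1.47) and Klre1 (-1.37) fell most, and reads of this multigene family are uncertain. Without the first liver replicate 2 of them fell.

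Inhibitory receptors and exhaustion genes rose in 6 of 17 members and fell in 9 (median -0.17). Lag3 was at 135 and 129 CPM in lung, against 347 and 370.3 CPM in liver (-1.44, SE 0.08, adjusted p 1.93e-12 by edgeR). Cd160 was at 23.4 and 26.8 CPM in lung and at 107 and 102 CPM in liver (-2.05, SE 0.09), and Havcr2, which encodes TIM-3, changed by -1.19. Ctla4 and Nt5e were the members that rose most.

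Interferon-stimulated genes fell in 21 of 32 members and rose in 2 (median -0.42). Rtp4 was at 16.8 and 20.8 CPM in lung, against 40.2 and 42.3 CPM in liver (-1.13, SE 0.14), and Ifit1 and Isg15 changed by -0.91 and -0.83. Eif2ak2, which encodes the RNA sensor PKR and is no member of the list, was named after its value was seen: it was at 17.6 and 20.1 CPM in lung and at 69.7 and 67.9 CPM in liver (-1.87, SE 0.12). The 2 that rose were the exonuclease Isg20 (0.43) and Oasl2 (0.63), whose call was lost without the first liver replicate (adjusted p 0.118) or the second lung replicate (adjusted p 0.155; 0.0075 to 0.155 over 16 alternatives). Proliferation genes fell in 15 of 28 members and rose in 1 (median -0.33). Rrm2, a ribonucleotide reductase subunit, was at 49.5 and 60.3 CPM in lung, against 92 and 93.2 CPM in liver (-0.75, SE 0.10), and Plk1 and Pcna changed by -0.64 and -0.43. Mki67 was at 547 and 638 CPM in lung and at 535 and 568 CPM in liver (adjusted p 0.291 by edgeR). Ccne2, cyclin E2, was the 1 that rose (0.71), and its call was lost without the second lung replicate (adjusted p 0.0722; 1.61e-05 to 0.0722 over 16 alternatives); 2 rose without the first lung replicate. The count of proliferation genes that fell was 7 without the first lung replicate and 9 without the second liver replicate. Cytosolic ribosomal protein genes rose in 22 of 28 members and fell in 0 (median 0.35; Rpl14 0.51), and with library totals as the scale 12 rose. Of the lists with 0 members lower by edgeR, the NF-kappaB list had 1 member lower at an unadjusted p under 0.05, and the chaperone, AP-1, Th17 and ribosomal lists had 0; DESeq2 called 0 lower in each. In the NF-kappaB list 1 member, the subunit Rela, was called lower under 8 of 16 alternatives, namely upper quartile scaling, library totals, the 8-library and 4-library fits and without any 1 PSGL1lo library, and in the other 4 lists 0 were called lower under all 16.

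**Figure D4:**
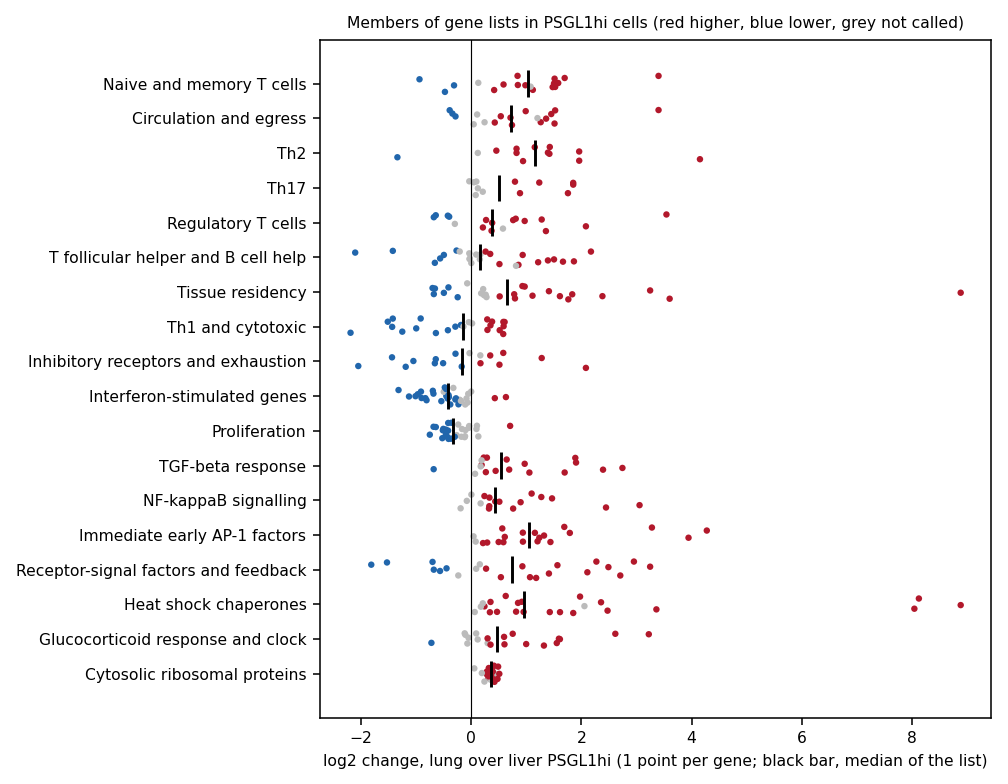
Log2 change, lung over liver PSGL1hi, for each tested member of 18 gene lists; red and blue points passed the test higher and lower, grey points did not, and black bars are list medians. Th2 and naive and memory lists have medians above 1, and the interferon list has a median of -0.42. The chaperone point near 8 with 0 liver counts is Hspb1, whose fitted size depends on the model.

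The organ difference was largely present in PSGL1lo cells too, and a smaller set of genes depended on the fraction. Between lung and liver PSGL1lo cells 5504 genes (39.9%) were called, 2695 higher (19.6%) and 2809 lower (20.4%). Of the genes higher in lung PSGL1hi cells 1836 were also higher in lung PSGL1lo cells, 66.4% of the PSGL1hi list and 68.1% of the PSGL1lo list; of those lower, 1738 were shared, 68.9% and 61.9%. The difference of the organ effect, PSGL1hi minus PSGL1lo, was itself called for 823 genes (5.97%), 536 above 0 (3.89%) and 287 below it (2.08%), or 362 above and 404 below with library totals. That count moved with single libraries: it was 522 without the second lung PSGL1hi replicate, 487 and 475 without the first and second liver PSGL1hi replicate, 520 without the first lung PSGL1lo replicate and 1320 without the second liver PSGL1lo replicate. Of 886 genes called higher in PSGL1hi and not in PSGL1lo cells, 136 had the difference called, and of 753 lower ones 83.

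The largest positive differences were those of Olr1, Cxcl10, Ramp3, Mmp9 and Gzmb. The call of Olr1 was lost without either liver PSGL1hi replicate, the second lung PSGL1hi replicate, the first lung PSGL1lo replicate or the second liver PSGL1lo replicate (adjusted p 0.0535 to 0.196 by edgeR). Ramp3, a partner of calcitonin-type receptors, was at 79.4 and 66.1 CPM in lung against 5.44 and 4.1 CPM in liver in PSGL1hi cells, and at 60.3 and 47.3 CPM against 11.4 and 10.4 CPM in PSGL1lo cells (difference 1.64, SE 0.21, adjusted p 3.19e-05 by edgeR). Gzmb was lower in lung in both fractions but less so in PSGL1hi cells: PSGL1lo cells held 15.2 and 27.1 CPM in lung against 157 and 146 CPM in liver (difference 1.59, SE 0.20). Cxcl10, a ligand of CXCR3, was higher in lung in PSGL1hi cells, at 12.9 and 14.5 CPM against 7.68 and 8.48 CPM, and lower in PSGL1lo cells, at 22.3 and 25.2 CPM against 48 and 45.2 CPM (difference 1.74, SE 0.18). The largest negative differences were those of Itgax, Atp2b2, Nlrp3, Cacna1d and Serpine2; that of Nlrp3 lost its call without either liver PSGL1hi replicate or the first liver PSGL1lo replicate (adjusted p 0.0547 to 0.171 by edgeR). Itgax, which encodes CD11c, was at 74.3 and 95.3 CPM in lung against 22.3 and 24.5 CPM in liver in PSGL1hi cells, and at 45.2 and 83.5 CPM against 1.6 and 2.27 CPM in PSGL1lo cells (difference -3.23, SE 0.32, adjusted p 1.29e-06 by edgeR). Cacna1d, a calcium channel subunit, was lower in lung in PSGL1hi cells, at 3.98 and 4.11 CPM against 13.6 and 15.2 CPM, and was not called in PSGL1lo cells, at 49.3 and 35.7 CPM against 28.8 and 40.3 CPM (adjusted p 0.0967). Serpine2 was not called in PSGL1hi cells (-0.44, adjusted p 0.0668 by edgeR) and was higher in lung in PSGL1lo cells (1.60). In PSGL1hi cells it was called lower in lung under 9 of 16 alternatives. Among these were upper quartile scaling (adjusted p 0.0466 by edgeR) and the 4 PSGL1hi libraries alone (0.0153). Without the first lung PSGL1hi replicate its change was -0.75.

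Several gene groups shifted by fraction. Over all genes tested, 3.89% had a positive difference and 2.08% a negative one. Of 26 residency genes 12 had a positive difference and 0 a negative one. Among the 12 were Itgae, Cd69, Prdm1 and Rgs1, and also Hspa1a, Nr4a1 and Bhlhe40, which other lists here hold too. The organ change of Itgae was 0.97 in PSGL1hi cells and 0.11 in PSGL1lo cells (difference 0.86, SE 0.13, adjusted p 0.000129 by edgeR). Of 18 TGF-beta response genes 10 had a positive difference and 0 a negative one, and of 17 NF-kappaB genes 8 and 0. Of 17 inhibitory genes 8 had a negative difference and 1 a positive one: Lag3 changed by -1.44 in PSGL1hi and by -0.22 in PSGL1lo cells (difference -1.22, SE 0.11, adjusted p 4.8e-07 by edgeR), and Tox by -0.66 and 0.47 (difference -1.13). Il21 also fell more in PSGL1hi cells, by 2.11 against 0.62 on the log2 scale (difference -1.49, SE 0.13). Of 28 proliferation genes 27 were lower in lung in PSGL1lo cells and 0 higher, and 16 had a positive difference and 0 a negative one. Chaperones rose in both fractions, with 18 of 23 higher in PSGL1lo cells and 5 positive differences. Interferon-stimulated genes fell in both, with 28 of 32 lower in PSGL1lo cells, and 3 had a positive difference. The macrophage markers that rose in lung PSGL1hi cells also rose in lung PSGL1lo cells, in 14 of 14 cases. Where edgeR called 0 members in a direction here, DESeq2 also called 0, and at an unadjusted p under 0.05 there was 1 negative difference among residency genes and 0 in the TGF-beta, NF-kappaB and proliferation lists. Over 15 alternatives a negative difference was called for Xcl1 or Nr4a2 of the residency list in 6 and for Bmpr2 of the TGF-beta list in 1. Some counts of positive differences changed with the fit or the scaling. With the 8 lung and liver libraries alone, that of chaperones was 1 and that of proliferation genes 10. With library totals, that of chaperones was 2. Some counts of positive differences also rested on single libraries. That of proliferation genes, 16, was 7 without the second lung PSGL1hi and 10 without the first lung PSGL1lo replicate. That of NF-kappaB genes, 8, was 5 without the first lung PSGL1hi, the first liver PSGL1hi or the second lung PSGL1lo replicate, and with library totals. The 5 chaperone differences became 0 without the first lung PSGL1hi or the first lung PSGL1lo replicate, and 2 and 1 without the first and second liver PSGL1hi replicate. The 3 interferon differences became 1 without the second lung PSGL1hi, the first liver PSGL1hi or the first lung PSGL1lo replicate.

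**Figure D5:**
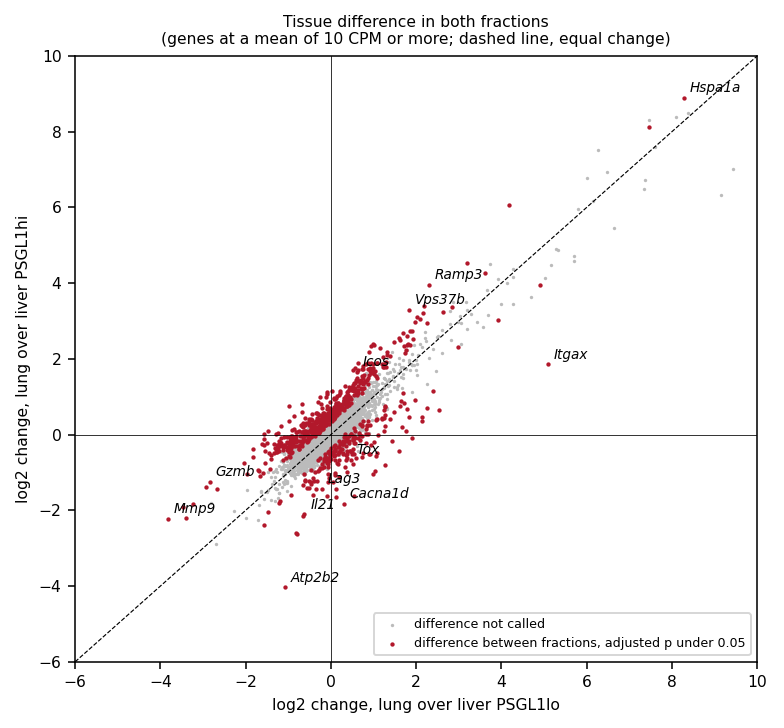
Each point is a gene at a mean of 10 CPM or more: the x axis is its log2 change, lung over liver, in PSGL1lo cells and the y axis the same in PSGL1hi cells. Of 8552 genes, the 692 whose difference was called are red; 3 lie outside the axes. Vps37b, Icos and Ramp3 lie above the dashed line of equal change, and Il21, Lag3, Tox, Itgax and Atp2b2 lie below it.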

How the data were processed

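The deposited values are raw read counts per gene; per the submitters' processing notes, the authors aligned to mm9 using TopHat2 2.0.8 and counted using HTSeq. Annotation and strand setting: not given in the sources used here. Counts of overlapping genes and of near-identical copies (Hspa1a and Hspa1b, Serpina3f, Klr genes) are therefore uncertain. From 25017 genes, edgeR 4.0.16 (R 4.3.3) kept 13780 by filterByExpr, scaled libraries by TMM and fitted 1 mean per group over all 14 libraries, so that 7 residual degrees of freedom share one estimate of the spread (common biological coefficient of variation 7.35%). Tests were two-sided quasi-likelihood F tests; a second test was against a 1.5-fold change. DESeq2 1.42.0 was an alternative. A count of 3, the limit that 0 counts allow, equals 0.13 and 0.118 CPM in the lung and 0.135 and 0.109 CPM in the liver PSGL1hi libraries, for counting error only. Counts of the 2 PSGL1hi replicates differed by more than sampling noise. The chi-square over its degrees of freedom was 6.36 in lung and 3.92 in liver. The biological coefficient of variation within a pair was 6.02% in lung and 3.8% in liver PSGL1hi libraries. It was 8.49% in lung and 12.3% in liver PSGL1lo libraries, which enter every difference between fractions. Of the 14 libraries, the first liver PSGL1lo library held the most counts (33532595) and the fewest detected genes (14036).

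Named genes are the 15 largest changes each way among called genes at 10 CPM or more in the higher organ with no overlap of libraries, the 5 largest differences between fractions each way by the same rule, 10 each way at 50 CPM in both organs, lineage genes, and members of gene lists; some are not reported here. Lists and members were chosen with earlier results of these data known. Promoters were matched by symbol for 10780 of 13780 genes.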

Additional observations from a re-analysis of the deposited data

Results flagged for a closer look

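Of 168 genes named in the report, 75 had an organ effect that differed between the sorted fractions. The test was edgeR's test of the difference itself, with a Benjamini-Hochberg adjusted p under 0.05. Over all genes tested it called 823 of 13780 (5.97%). Some genes were named because this difference was called, and others for a large organ change. The share among named genes was thus partly set by how they were chosen. The values below are the log2 change of lung over liver in PSGL1hi cells minus the same change in PSGL1lo cells. Each of the 4 groups had 2 libraries. Of the 75 values, 54 were above 0 and 21 below it. Among chaperones the differences were Hspa1a 0.60, Hspa1b 0.67, Dnajb1 0.52 and Hsph1 0.51. For AP-1 and receptor-signal genes they were Fosl2 0.66, Klf6 0.4970, Jun 0.68, Crem 0.69, Nr4a1 0.62, Dusp5 0.87, Egr1 0.63, Atf3 -0.96 and Egr2 -0.61. In NF-kappaB and TGF-beta genes the values were Tnfaip3 0.96, Nfkbiz 0.96, Nfkbia 0.95, Tgif1 0.89, Smad7 0.96, Skil 0.80 and Id2 0.45. Of homing, residency and memory genes, the differences stood at Ccr7 1.21, Cxcr4 1.07, Ccr4 0.82, Cd69 0.60, Itgae 0.86, Rgs1 0.78, Prdm1 0.88, Tcf7 0.42, Cd28 0.68, Cd27 -0.48 and Selplg 0.51. For helper and regulatory genes, Bcl6 0.85, Icos 1.05, Cd40lg 0.74, Il21 -1.49, Angptl2 -1.54, Tox -1.13, Gata3 0.47, Tbx21 0.81, Rora 1.02, Foxp3 0.68, Lrrc32 1.35, Ctla4 0.71 and Il12rb2 0.78 were found. Among cytotoxic and inhibitory genes they stood at Gzma 1.22, Gzmb 1.59, Cd7 1.20, Cd8b1 -1.09, Lag3 -1.22, Havcr2 -0.59 and Cd160 -0.58. Within clock and cycle genes the differences came to Per1 0.82, Tsc22d3 0.49, Bhlhe40 0.59, Rrm2 0.79, Plk1 0.75 and Mki67 0.72. Other genes named in the report with a difference above 0 were Mmp9 1.60, Olr1 1.90, Cxcl10 1.74, Ramp3 1.64, Vps37b 1.46, P2ry10 0.96 and Dtx1 1.55, and those below 0 were Atp2b2 -2.95, Ccdc80 -1.84, 2900026A02Rik -1.80, Setbp1 -0.81, Coch -1.4996, Itgax -3.23, Nlrp3 -2.42, Cacna1d -2.14, Serpine2 -2.04, Srsf1 -0.55 and Cxcl16 -1.88. Over 15 alternatives none of the 75 changed direction. Of them, 51 were called under each alternative and 24 lost their call under at least 1. Where every group kept both libraries, 65 to 75 were called per alternative. Among the 24 were Hspa1a, Hspa1b, Dnajb1, Hsph1, Fosl2, Klf6, Egr1, Egr2, Atf3, Id2, Cd69, Tcf7 and Selplg. The rest were Foxp3, Gata3, Lrrc32, Gzma, Havcr2, Cd160, Plk1, Olr1, Nlrp3, Setbp1 and Cxcl16. Egr1 and Gzma lost the call with DESeq2 too (adjusted p 0.172 and 0.17).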

How the results depend on the processing

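Of 168 genes named, 152 kept their side of the threshold under all 16 alternatives, and 16 (Ccl2, Ccl17, Ccl22, Ccne2, Cd3e, Cd4, Cxcr3, Cxcr5, Cxcr6, Fos, Oasl2, Pdcd1, Ptgdr2, Rela, Serpine2 and Tbx21) changed their call under at least 1; the cause was not tested. Called genes kept their direction, and 4 that were not called (Egr1, Mki67, Prdm1 and Selplg) changed sign under 1 or 2 alternatives. The call count for lung against liver PSGL1hi, 5288, was 5268 with RLE and 5371 with upper quartile scaling, 5918 with library totals, 5334 without a filter on low counts, 5088 with the 8 lung and liver libraries, 6352 with the 4 PSGL1hi libraries alone, 5022 with DESeq2 and 3576 to 5839 with 1 library left out. The 1.5-fold count, 1165, ranged from 843 to 1290 with 1 library left out and was 799 with DESeq2. With library totals, an alternative chosen after seeing the data, 32.9% of calls were higher in lung, against 52.3% with TMM. Leaving out 1 library moved the PSGL1lo count, 5504, to between 4231 and 5921, and the count for the difference, 823, to between 475 and 1320. Where a lone library remains in a group, it is assumed to vary like the other groups.

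Replicate numbers are shared by the groups, and a letter A or B in the names of the lung and liver libraries goes with them. The labels do not say whether number or letter stands for an animal. The digit after that letter goes with opposite fractions in liver and lung, and fractions were taken from the sample titles. By these titles Selplg was higher in the PSGL1hi than in the PSGL1lo libraries of each organ. Deviations of lung and liver PSGL1hi samples of the same number correlated at r = -0.0999 over 8552 genes, lung PSGL1hi and lung PSGL1lo samples at 0.261, and the pairs of liver PSGL1hi and liver PSGL1lo, liver PSGL1hi and lung PSGL1lo, and lung PSGL1hi and liver PSGL1lo at 0.0305, -0.0158 and -0.08. With the number as a replicate block the counts were 5125, 1119 past the 1.5-fold test, 5302 for PSGL1lo and 753 for the difference; Cxcr5 (adjusted p 0.0553) and Cxcr3 (adjusted p 0.0633) lost their calls. Lung and liver PSGL1lo samples correlated at r = -0.268, and a block with the numbers of the liver PSGL1lo pair crossed, added after seeing the data, gave 5435, 1167, 5630 and 936 calls.

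With 2 libraries a group, small changes rest on a spread shared with other groups, and genes near the floor of 3 counts show direction only.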
